A study of Mus musculus with 46 samples.

Results

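Mouse bone marrow-derived macrophages (BMDM), macrophages grown in culture from bone marrow precursors, received the oxysterol 27-hydroxycholesterol (27HC) together with an antagonist of either of its receptors, and their polyadenylated RNA was sequenced. GSK2033 + 27HC, an antagonist of the liver X receptors (LXR) given with 27HC, was compared with ICI + 27HC, the estrogen receptor (ER) antagonist fulvestrant given with 27HC. The libraries were taken by their treatment labels: 5 of each group, 10 of the 46 in the series. The table held 24671 genes, of which 13838 had enough counts to be tested. The other groups used here were 27HC alone, GSK2033 alone and ICI alone, with 5 libraries each, and Vehicle, with 6; the GW3965 and estradiol groups entered only the shared estimate of the spread. All 10 libraries of the comparison thus carried 27HC, and no library of it was untreated. The labels give no dose, exposure time, mouse strain, sex or age, nor do they state that the replicates of a group were grown from different animals or in different dishes. The p-values therefore rest on the spread between these libraries alone, which may be technical.

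LXR are nuclear receptors that sit on DNA with their partner RXR. With an oxysterol bound they switch on genes that move cholesterol out of the cell and make fatty acids, and in macrophages they are also known to hold back inflammatory genes. ER are hormone-activated nuclear receptors, and 27HC can bind them as well. The comparison thus asks how 27HC-treated macrophages differ between an LXR antagonist and an ER antagonist. How far either compound acted through its receptor was not tested.

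Levels are given as TMM-scaled CPM, counts relative to the library total after a scaling factor,, which compares libraries for 1 gene and not genes with each other. Fold changes are log2 of GSK2033 + 27HC over ICI + 27HC unless another pair is named, given ± their standard error (SE), and mean levels are given ± SD over the 5 libraries of a group where a spread is shown. A gene was called at an adjusted p under 0.05 in the quasi-likelihood test of edgeR, adjusted over the 13838 genes by the Benjamini-Hochberg method, and every adjusted p below comes from that test. Total estimated counts ran from 21598974 to 26567785 in the GSK2033 + 27HC libraries and from 19887160 to 24238684 in the ICI + 27HC libraries. All 13 macrophage markers were tested, and they summed to between 13936 and 15477 CPM with GSK2033 + 27HC and between 11588 and 12345 CPM with ICI + 27HC. The 10 lymphocyte markers summed to at most 1.30 CPM with GSK2033 + 27HC and at most 1.63 CPM with ICI + 27HC. The neutrophil markers Ly6g and Retnlg were at 0 in all 10 libraries, and that list summed to between 30.2 and 37.9 CPM with GSK2033 + 27HC and between 29.8 and 36.1 CPM with ICI + 27HC. Only S100a8 and Csf3r of that list were tested, and Csf3r was not called. S100a8 was higher, at 1.99 ± 0.412 CPM with GSK2033 + 27HC and 1.11 ± 0.310 CPM with ICI + 27HC, with overlapping groups (log2 fold change 0.84 ± 0.20). Its interaction of 0.93 ± 0.29 log2 was called, but not without GSK2033 + 27HC replicate 4, without ICI + 27HC replicate 4 or without ICI replicate 3 (adjusted p from 0.0602 to 0.0646). Stromal cell markers summed to between 4465 and 4850 CPM with GSK2033 + 27HC, against 3647 to 4101 CPM with ICI + 27HC, and 5 of the 9 tested were higher and 3 lower; their part in the results was not tested. In bulk RNA, fewer cells of a type and less RNA per cell cannot be told apart.

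With 27HC present, macrophages given GSK2033 held far less RNA of the cholesterol exporters Abca1 and Abcg1 than macrophages given ICI. The GSK2033 + 27HC libraries held more RNA of interferon-stimulated, inflammatory, antigen-presentation and glycolytic genes. Of the 13838 genes, 2218 (16.0%) were higher and 2262 (16.3%) lower with GSK2033 + 27HC than with ICI + 27HC. At least 2-fold differences were found for 270 genes higher and 136 lower. The median log2 fold change over all genes was -0.0058, and 5% of genes lay below -0.53 and 5% above 0.71. The shares 16.0% and 16.3% are the background against which each gene list below is read.

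**Figure D1:**
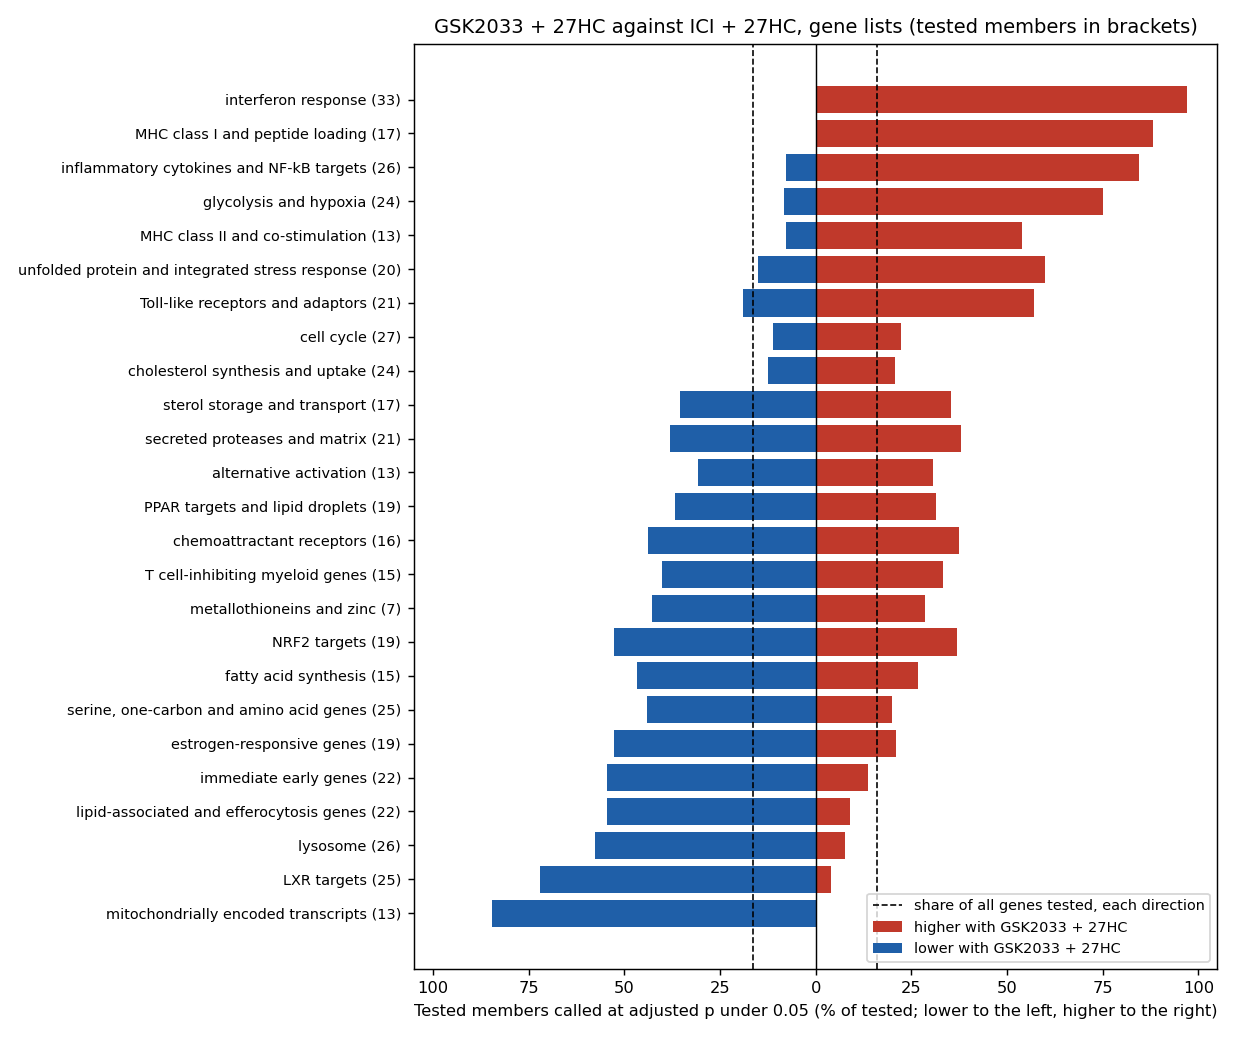
Share of the tested members of 25 gene lists that were called higher (right, red) or lower (left, blue) with GSK2033 + 27HC than with ICI + 27HC, in percent of tested members. Dashed lines mark the shares over all genes, 16.0% higher and 16.3% lower; interferon genes stand at the top with 32 of 33 higher, and LXR targets near the foot with 18 of 25 lower.

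The same pair of antagonists was also compared without the oxysterol, GSK2033 against ICI, in libraries that do not enter the comparison with 27HC. There, 1811 genes (13.1%) were higher and 1954 (14.1%) lower. Of the genes higher with 27HC present, 1138 were also higher without it, which is 51.3% of the first list and 62.8% of the second; of the genes lower, 1175 were shared, or 51.9% and 60.1%. The difference between these differences, an interaction term, was called for 862 genes (6.23%) with a higher and 836 genes (6.04%) with a lower fold change in the presence of 27HC. Among those 1698 genes, whether or not called in either setting, 715 had a fold change of the same sign in both and larger with 27HC. Another 204 had the same sign and a smaller one with 27HC, and the rest had opposite signs. Of the 1698, 123 were called in both settings and in opposite directions. Of these, 50 were higher with 27HC and lower without it, and 73 lower with 27HC and higher without it.

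Most LXR target genes were lower with GSK2033 + 27HC, and the 5 lowest of the genes named here were all among them. Of 30 listed, 25 were tested, and 18 were lower with GSK2033 + 27HC and 1 higher, with a median log2 fold change of -0.86. Abcg1, a transporter that loads cholesterol onto HDL particles, had 0.715, 0.583, 0.966, 0.657 and 0.765 CPM with GSK2033 + 27HC, against 338, 318, 303, 341 and 350.3 CPM with ICI + 27HC. Every GSK2033 + 27HC library was below 1 CPM and every ICI + 27HC library above 300 CPM, a log2 fold change of -8.81 ± 0.12 (adjusted p = 2.07e-41). Abca1, which hands cholesterol to lipid-poor apolipoprotein A-I, had 39.9, 41.7, 38.9, 41.1 and 34.9 CPM with GSK2033 + 27HC, against 729, 707, 653, 730.1 and 715 CPM with ICI + 27HC. The groups were far apart, with an 17.96-fold lower level under GSK2033 + 27HC and a log2 fold change of -4.17 ± 0.077. Mylip, a ubiquitin ligase of lipoprotein uptake, had 9.30, 10.1, 8.53, 8.54 and 9.04 CPM with GSK2033 + 27HC, against 139, 147, 132, 142 and 141 CPM with ICI + 27HC, again without overlap (log2 fold change -3.94 ± 0.043). Scd2, a fatty acid desaturase, had 11.7, 11.1, 11.1, 12.6 and 13.1 CPM with GSK2033 + 27HC, against 135, 136, 133, 139 and 145 CPM with ICI + 27HC. These levels of Scd2 did not overlap (log2 fold change -3.53 ± 0.050). Eepd1, a protein that helps keep ABCA1 at the cell surface, was lower, at -3.69 ± 0.064 log2, and Arl4c, a small GTPase, at -1.73 ± 0.022 log2.

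Not every gene of the LXR list behaved so. Srebf1, the regulator of fatty acid synthesis genes and a classical LXR target, differed by only -0.49 ± 0.052 log2, with 50.9, 49.8, 52.5, 50.8 and 63.8 CPM with GSK2033 + 27HC, against 74.5, 73.8, 68.5, 81.7 and 77.6 CPM with ICI + 27HC. All 5 GSK2033 + 27HC libraries were nonetheless below all 5 ICI + 27HC libraries, and 1 of them, at 63.8 CPM, stood above its fellows. Nr1h3, which encodes LXR alpha, was the member that was higher with GSK2033 + 27HC, at 50.1 ± 1.03 CPM with GSK2033 + 27HC and 39.5 ± 3.09 CPM with ICI + 27HC (log2 fold change 0.35 ± 0.064). Nr1h2, which encodes LXR beta, was also higher, by 0.18 ± 0.038 log2, at 82.9 ± 3.53 CPM with GSK2033 + 27HC and 73.4 ± 1.65 CPM with ICI + 27HC.

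The exporters were at their lowest with GSK2033 + 27HC of all 6 groups, below GSK2033 alone and below Vehicle. Mean levels of Abcg1 were 0.737 CPM with GSK2033 + 27HC, 330.3 CPM with ICI + 27HC, 342 CPM with 27HC, 1.34 CPM with GSK2033, 109.7 CPM with ICI and 41.2 CPM with Vehicle. For Abca1 the order was 39.3 CPM with GSK2033 + 27HC, 707 with ICI + 27HC, 988 with 27HC, 71.3 with GSK2033, 379.9 with ICI and 394 with Vehicle. Against 27HC alone, the log2 fold change of Abcg1 was -8.86 ± 0.12 for GSK2033 + 27HC and -0.052 ± 0.065 for ICI + 27HC, which was not called, and that of Abca1 was -4.65 ± 0.078 and -0.48 ± 0.065; both contrasts use the same 27HC libraries. Over the 25 tested targets, 19 were lower and 0 higher with GSK2033 + 27HC than with 27HC (median -0.89), where 21.7% of all genes were lower and 21.1% higher. In the ICI + 27HC libraries, 10 were lower and 5 higher than with 27HC (median -0.053), where 17.4% of all genes were lower and 16.8% higher.

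**Figure D2:**
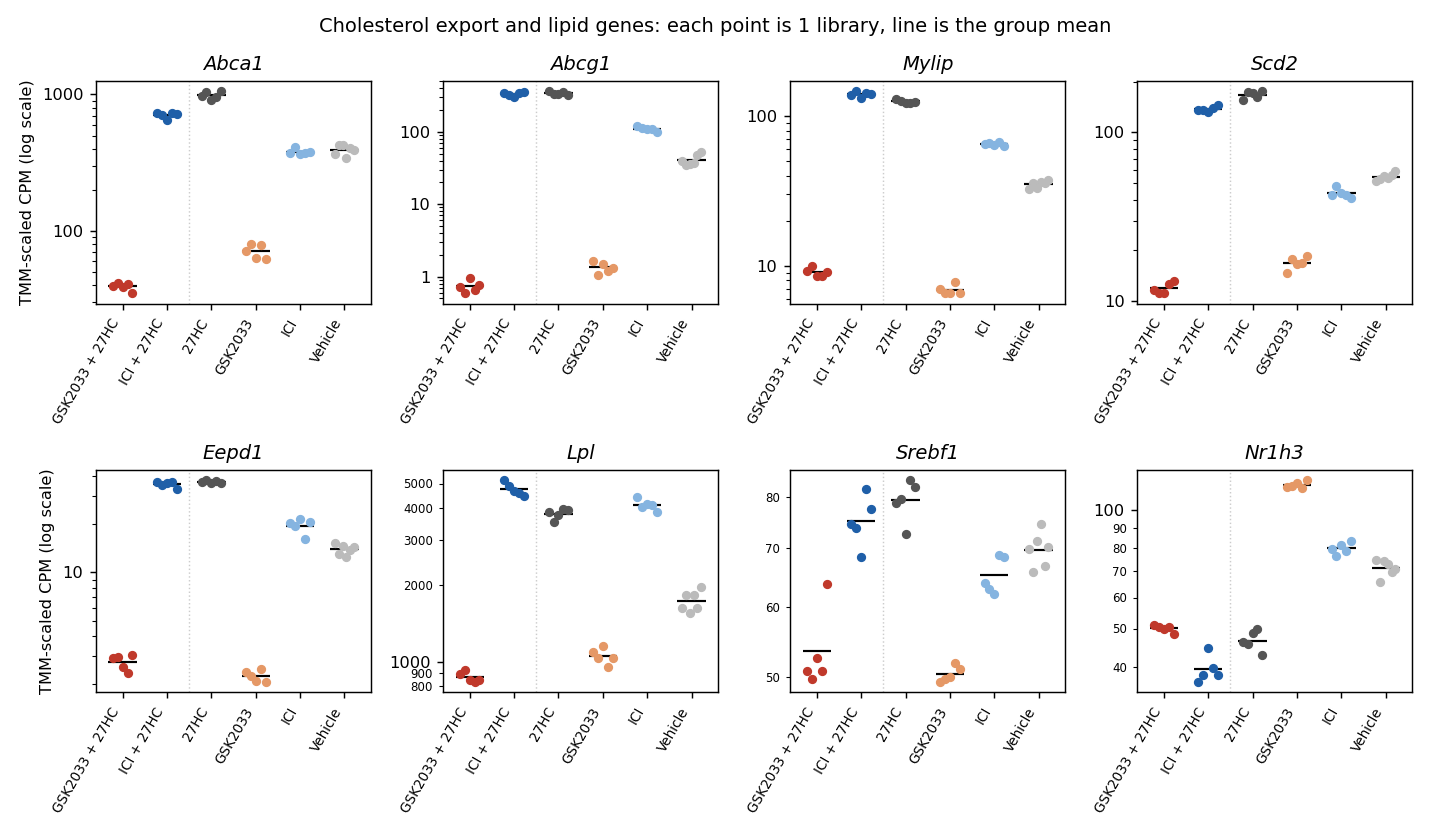
TMM-scaled CPM (log axis) of 8 cholesterol export and lipid genes in each library of 6 groups, with a line at the group mean. GSK2033 + 27HC libraries lie far below ICI + 27HC libraries for Abca1, Abcg1, Mylip, Scd2, Eepd1 and Lpl, less so for Srebf1, and above them for Nr1h3.

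Adding 27HC moved the exporters in opposite directions under the 2 antagonists. Abcg1 fell under GSK2033, at -0.87 ± 0.28 log2 for GSK2033 + 27HC over GSK2033, and rose under ICI, at 1.59 ± 0.068 log2 for ICI + 27HC over ICI. The same held for Abca1, at -0.86 ± 0.075 log2 for GSK2033 + 27HC over GSK2033 and 0.90 ± 0.066 log2 for ICI + 27HC over ICI, and for Scd2, at -0.50 ± 0.058 and 1.66 ± 0.043. It did not hold for Mylip, whose levels were higher with 27HC under both antagonists. Under GSK2033, Mylip had 8.53 to 10.1 CPM with 27HC and 6.55 to 7.77 CPM without it. Of the 25 tested targets, 3 rose and 11 fell on adding 27HC to GSK2033, where 17.1% of all genes rose and 18.8% fell. On adding it to ICI, 14 rose and 7 fell, where 19.7% of all genes rose and 20.7% fell. The interaction with 27HC was called downwards for 13 of the 25 targets, and was -2.46 ± 0.29 log2 for Abcg1, -2.16 ± 0.072 for Scd2 and -1.75 ± 0.10 for Abca1.

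Some other genes of lipid handling shared the direction of the exporters. Lpl, the lipase that frees fatty acids from lipoproteins, had 892, 930.2, 845, 831 and 848 CPM with GSK2033 + 27HC, against 5178, 4888, 4687, 4609.7 and 4486 CPM with ICI + 27HC, a 5.49-fold lower level with GSK2033 + 27HC. Cd36, a fatty acid receptor, was lower, at -1.16 ± 0.027 log2, at 1368 ± 18.9 CPM with GSK2033 + 27HC and 3048 ± 36.1 CPM with ICI + 27HC. Pparg, the nuclear receptor of lipid storage, was lower, at -1.10 ± 0.062 log2, and Plin2, which coats lipid droplets, at -0.40 ± 0.030. Of 19 tested PPAR targets and lipid droplet genes, 6 were higher and 7 lower, so the list as a whole had no single direction (median 0.049). Of 15 tested fatty acid synthesis genes, 7 were lower and 4 higher. Of the lower ones, Scd1, Scd2, Fasn and Srebf1 are also on the LXR list and were counted there. The lower ones included Scd1, a desaturase, at -1.57 ± 0.10 log2, Fasn, fatty acid synthase, at -1.06 ± 0.11, Acaca, which makes malonyl-CoA, at -0.9999 ± 0.078, and Elovl5, an elongase, at -0.63 ± 0.035. The higher ones were Acly, Fads1, Acss2 and Me1.

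Genes of cholesterol synthesis and uptake, which SREBP2 controls, differed less between the groups. Of 24 tested, 5 were higher and 3 lower, shares close to those of all genes, and the median log2 fold change was -0.015. Hmgcs1, an early enzyme of the pathway, had 32.4, 35.4, 32.1, 30.2 and 30.5 CPM with GSK2033 + 27HC, against 33.5, 32.4, 30.9, 31.4 and 33.3 CPM with ICI + 27HC, and these ranges overlapped (log2 fold change -0.0065 ± 0.041, 95% interval -0.089 to 0.076). Insig1, which retains the SREBP complex in the endoplasmic reticulum, was higher by 0.47 ± 0.038 and Sc5d, a late enzyme, by 0.23 ± 0.064, whereas Msmo1 and Idi1, both synthesis enzymes, were lower, at -0.21 ± 0.051 and -0.22 ± 0.064. Both combinations held less Idi1 than Vehicle did, with means of 8.24 CPM with GSK2033 + 27HC, 9.59 CPM with ICI + 27HC and 56.3 CPM with Vehicle. Adding 27HC lowered 14 of the 24 under GSK2033 and 20 under ICI, where 18.8% and 20.7% of all genes fell.

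Stard4, a carrier that moves cholesterol between membranes, changed sides with the oxysterol. It had 6.31, 7.38, 7.27, 6.87 and 6.84 CPM with GSK2033 + 27HC, against 5.49, 5.33, 5.72, 5.24 and 5.26 CPM with ICI + 27HC, a log2 fold change of 0.36 ± 0.070, but without 27HC it was lower with GSK2033 than with ICI, at -0.34 ± 0.059 log2, and the interaction was 0.69 ± 0.091 (adjusted p = 1.19e-07). Among 17 sterol storage and transport genes, 6 were higher and 6 lower. Ch25h, which makes the oxysterol 25-hydroxycholesterol, had 5.05, 5.09, 6.22, 5.84 and 5.53 CPM with GSK2033 + 27HC, against 1.06, 1.04, 0.863, 0.698 and 0.653 CPM with ICI + 27HC, 6.38-fold higher with GSK2033 + 27HC. Osbpl3, an oxysterol-binding protein relative, was higher by 0.63 ± 0.067 log2. Lipa, the lysosomal lipase of cholesteryl esters, Nceh1, a cholesteryl ester hydrolase, and Soat1, which makes such esters, were lower, at -0.67 ± 0.027, -0.33 ± 0.028 and -0.27 ± 0.034 log2.

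The receptor that fulvestrant binds was weakly expressed. Esr1, ER alpha, had 4.67, 4.66, 4.41, 5.77 and 5.85 CPM with GSK2033 + 27HC, against 2.28, 2.21, 2.45, 2.84 and 2.49 CPM with ICI + 27HC. The groups did not overlap and Esr1 was 2.07-fold higher with GSK2033 + 27HC (log2 fold change 1.05 ± 0.12, adjusted p = 2.54e-10); the mean was 3.74 CPM with 27HC, 6.49 with GSK2033, 5.54 with ICI and 6.18 with Vehicle. Esr2, ER beta, had at most 4 estimated counts in any library of either group and was not tested. Of 24 estrogen-responsive genes listed, 19 were tested, and 4 were higher and 10 lower with GSK2033 + 27HC (median -0.20). Igf1, a growth factor, had 429, 418, 413, 431 and 428 CPM with GSK2033 + 27HC, against 839.8, 809, 895, 842 and 829 CPM with ICI + 27HC, and was lower, at -0.99 ± 0.033 log2. Myc, a growth regulator, was lower, at -0.68 ± 0.051, Rara, a retinoic acid receptor, at -0.41 ± 0.048, Ctsd, a lysosomal protease, at -0.23 ± 0.024, and Ccnd1, cyclin D1, at -0.19 ± 0.046. Igf1 averaged 424 CPM with GSK2033 + 27HC and 843 CPM with ICI + 27HC, beside 864 CPM with 27HC alone, and its log2 fold change over 27HC was -1.03 ± 0.033 for GSK2033 + 27HC and -0.036 ± 0.033, not called, for ICI + 27HC.

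Interferon-stimulated genes were higher with GSK2033 + 27HC almost without exception. All 33 listed genes were tested, 32 were higher and 0 lower, and the median log2 fold change was 0.99. The gene that missed the threshold was Mx2. Dendritic cell markers summed to between 425 and 445 CPM with GSK2033 + 27HC and between 310.02 and 339.7 CPM with ICI + 27HC, most of it Bst2, itself an interferon-stimulated gene, with Siglech at 0 in all 10 libraries; their part was not tested. These genes carry, in many promoters, an element that factors activated by interferon bind, and stretches before the gene start that hold its core are shown for 3 of the genes with the smallest p and for Gbp2. Capitals mark matches to the letters GAAANNGAA on either strand, and run on where matches overlap; the sequences are RefSeq's, on GRCm38.p6.
Ifit1, chr19:34640757-34640836, + strand: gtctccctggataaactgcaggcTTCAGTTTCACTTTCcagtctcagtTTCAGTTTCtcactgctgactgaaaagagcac
Isg15, chr4:156200847-156200926, - strand: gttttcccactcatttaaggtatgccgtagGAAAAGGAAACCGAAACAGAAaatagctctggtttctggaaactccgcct
Ifit3b, chr19:34607761-34607840, + strand: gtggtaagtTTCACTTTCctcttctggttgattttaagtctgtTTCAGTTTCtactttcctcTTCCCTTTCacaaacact
Gbp2, chr3:142620569-142620648, + strand: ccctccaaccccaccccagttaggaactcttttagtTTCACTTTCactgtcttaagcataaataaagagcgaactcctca
The letters occurred in the window from 250 bases before to 50 bases after the gene start for 15 of the 24 listed genes with a window (62.5%), and for 2638 of 27025 genes in all (9.76%). Other elements were sought in the same windows. The LXR element (GGTCA, 4 bases, GGTCA) occurred for 0 of 21 LXR targets with a window and 14 of 27025 genes in all. The estrogen element (GGTCA, 3 bases, TGACC) occurred for 0 of 18 estrogen-responsive genes and 20 in all. The sterol element TCACNCCAC occurred for 1 of 17 cholesterol synthesis and uptake genes and 388 in all. A match is a description of the letters and not of binding.

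Ifit1, which binds foreign RNA and blocks its translation, had 76.4, 70.3, 75.9, 71.6 and 74.4 CPM with GSK2033 + 27HC, against 23.6, 25.7, 21.3, 22.3 and 21.1 CPM with ICI + 27HC. The lowest GSK2033 + 27HC library was above the highest ICI + 27HC library, and the log2 fold change was 1.69 ± 0.067 (adjusted p = 6.18e-25). Isg15, a ubiquitin-like modifier, had 100.6, 85.2, 91.8, 93.01 and 97.97 CPM with GSK2033 + 27HC, against 31.4, 31.9, 29.02, 28.8 and 30.3 CPM with ICI + 27HC. Its log2 fold change was 1.63 ± 0.066, beside 1.13 ± 0.043 for Ddx58, the RNA sensor RIG-I, and 1.87 ± 0.081 for Ifit2. Ifit3b was higher by 2.14 ± 0.092 log2, though it shares near-identical sequence with Ifit3 and reads may have been split between them. Slfn1, a Schlafen gene, had 3.58, 2.84, 3.32, 2.99 and 2.74 CPM with GSK2033 + 27HC, against 0.325, 0.303, 0.409, 0.249 and 0.286 CPM with ICI + 27HC. It was 9.67-fold higher with GSK2033 + 27HC, the largest difference on the list, and the groups did not overlap.

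The interferon list also depended on the oxysterol. Without 27HC, 25 of the 33 were higher with GSK2033 than with ICI and 0 lower, with a median of 0.35 in place of 0.99, and the interaction was called for 30, all of them upwards. All 33 fell when 27HC was added, under GSK2033 (median -1.44) and under ICI (median -1.9999), where 18.8% and 20.7% of all genes fell. Ifit1 averaged 73.7 CPM with GSK2033 + 27HC, 22.8 with ICI + 27HC, 21.4 with 27HC, 222 with GSK2033, 139 with ICI and 125 with Vehicle. Both combinations were thus below Vehicle, and GSK2033 + 27HC lay between 27HC and Vehicle. Set against the shared 27HC libraries, 31 of the 33 were higher with GSK2033 + 27HC (median 0.85), where 21.1% of all genes were higher. With ICI + 27HC, 3 were higher and 12 lower (median -0.16), where 16.8% of all genes were higher and 17.4% lower. Ifi206, an interferon-inducible gene of a family with close copies, had one of the largest interactions, 1.71 ± 0.14 log2, from log2 fold changes of 2.05 with 27HC and 0.35 without it.

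**Figure D3:**
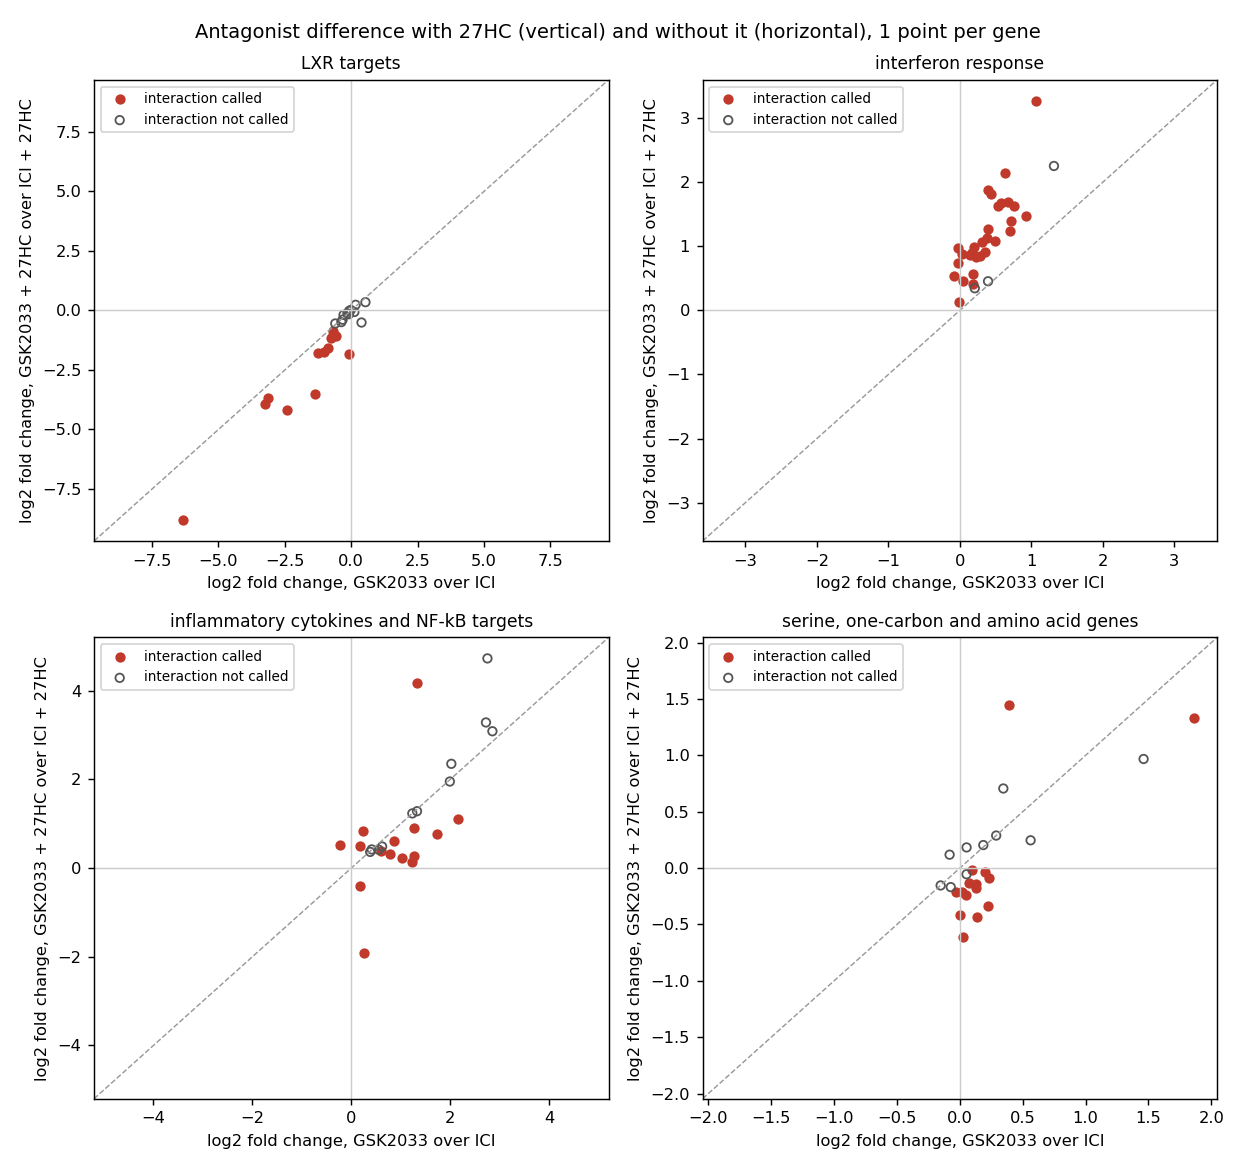
Log2 fold change of GSK2033 + 27HC over ICI + 27HC (vertical) against GSK2033 over ICI (horizontal) for the tested genes of 4 lists, with red points where the interaction was called and a dashed line of equality. Most interferon genes lie above the line and most LXR targets below it, inflammatory genes scatter on both sides, and most serine, one-carbon and amino acid genes lie below it.

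Genes of MHC class I presentation, many of which interferon also induces, went the same way. Of 17 tested, 15 were higher and 0 lower (median 0.51). H2-K1, a classical class I heavy chain, had 2382, 2355, 2417, 2376 and 2369 CPM with GSK2033 + 27HC, against 1431, 1496, 1504, 1418 and 1419.8 CPM with ICI + 27HC. The groups did not overlap, and the log2 fold change of 0.71 ± 0.032 was close to those of Tap1, the peptide transporter (0.79 ± 0.051), and Tapbp, which tethers it to class I (0.72 ± 0.033). H2-Q4 and H2-Q7, class I genes with close copies whose reads may be split, were higher by 0.997 ± 0.047 and 1.13 ± 0.058 log2. Of 13 class II and co-stimulation genes, 7 were higher and 1 was lower, H2-DMb2. The co-stimulatory molecules Cd86 and Cd40 were higher by 0.94 ± 0.071 and 0.91 ± 0.084 log2. Of 15 tested genes through which myeloid cells inhibit T cells, 5 were higher and 6 lower. Siglec1, a sialic acid receptor that interferon induces, was higher by 1.48 ± 0.068, Ptges, prostaglandin E synthase, by 1.62 ± 0.10 and Lgals9, a galectin, by 0.39 ± 0.031, while Havcr2, the receptor TIM-3, was lower, at -0.52 ± 0.067.

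Inflammatory cytokines and NF-kB targets were mostly higher with GSK2033 + 27HC. So was the neutrophil marker S100a8, whose part was not tested, while Csf3r, the other such marker tested, was not called. Of 26 cytokines and NF-kB targets tested, 22 were higher and 2 lower, Il1a and Tnfaip3 (median 0.57). Il6, an acute phase cytokine, had 5.26, 6.65, 4.29, 4.05 and 4.54 CPM with GSK2033 + 27HC, against 0.610, 0.866, 0.363, 0.200 and 0.449 CPM with ICI + 27HC. All GSK2033 + 27HC values were above 4 CPM and all ICI + 27HC values under 1 CPM, a log2 fold change of 3.29 ± 0.30 (adjusted p = 7.78e-13). Lcn2, an iron-siderophore binding protein, had 31.3, 31.2, 31.6, 28.2 and 27.98 CPM with GSK2033 + 27HC, against 1.71, 1.91, 1.36, 1.55 and 1.75 CPM with ICI + 27HC. Its log2 fold change of 4.17 ± 0.20 was the highest of the genes named here, though a gene of this list that is not named reached 4.73. Cxcl10, a chemokine for T cells, was higher by 2.35 ± 0.16, Icam1, an adhesion molecule, by 1.28 ± 0.046, Ptgs2, the cyclooxygenase COX-2, by 1.23 ± 0.067 and Nlrp3, the inflammasome sensor, by 0.61 ± 0.047.

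In this list few genes differed more with the oxysterol than without it. Without 27HC, 23 of the 26 were higher with GSK2033 than with ICI and 0 lower, with a median of 1.12, and the interaction was called upwards for 4 and downwards for 11. Lcn2 was the largest of the upward ones, 2.85 ± 0.26 log2, and averaged 30.04 CPM with GSK2033 + 27HC, 1.66 with ICI + 27HC, 4.96 with 27HC, 19.6 with GSK2033, 7.79 with ICI and 10.04 with Vehicle. Il1a, interleukin 1 alpha, was the largest downward one, -2.19 ± 0.28 log2. It had 2.02, 2.80, 1.89, 1.39 and 1.30 CPM with GSK2033 + 27HC, against 7.36, 7.23, 6.27, 8.58 and 6.45 CPM with ICI + 27HC, lower, at -1.92 ± 0.20 log2, and without 27HC its log2 fold change was 0.26 ± 0.19, which was not called. For Icam1 and Ptgs2 the interaction was -0.047 ± 0.064 and -0.0012 ± 0.094 log2, not called.

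Receptors for microbial products followed. Of 21 Toll-like receptors and adaptors, 12 were higher and 4 lower (median 0.30). Tlr2, the receptor for bacterial lipopeptides, had 480.1, 461, 481, 503 and 479.5 CPM with GSK2033 + 27HC, against 158, 161, 161, 161 and 160.4 CPM with ICI + 27HC, 3.003-fold higher with GSK2033 + 27HC. Tlr1, its partner, was higher by 0.76 ± 0.049 log2, Cd14, a lipopolysaccharide co-receptor, by 0.62 ± 0.041, Myd88, the shared adaptor, by 0.43 ± 0.030 and Irak3, an inhibitor of that pathway, by 1.31 ± 0.064. The chemoattractant receptors were split, with 6 of 16 tested higher and 7 lower. Fpr1, a receptor for formylated peptides, had 29.8, 29.8, 31.7, 31.3 and 28.4 CPM with GSK2033 + 27HC, against 2.48, 2.34, 1.86, 2.39 and 2.77 CPM with ICI + 27HC. Fpr1 was 12.7-fold and its relative Fpr2 8.26-fold higher with GSK2033 + 27HC, without overlap. Cx3cr1, the fractalkine receptor, was higher by 1.48 ± 0.084 log2, while C3ar1, a complement receptor, and Gpr183, which senses an oxysterol, were lower, at -0.65 ± 0.029 and -1.40 ± 0.064.

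For Fpr1, Cx3cr1 and Ms4a4a, the ICI + 27HC libraries were well below 27HC alone. Fpr1 averaged 30.2 CPM with GSK2033 + 27HC, 2.37 with ICI + 27HC, 15.1 with 27HC, 69.7 with GSK2033, 16.98 with ICI and 68.3 with Vehicle. Its log2 fold change over the shared 27HC libraries was 1.004 ± 0.12 for GSK2033 + 27HC and -2.66 ± 0.16 for ICI + 27HC. For Cx3cr1 the same 2 values were -0.44 ± 0.074 and -1.92 ± 0.083, and for Ms4a4a, a membrane protein of a family with close copies, -0.23 ± 0.094 and -2.58 ± 0.12. Cx3cr1 had 24.3, 26.6, 24.2, 24.9 and 25.6 CPM with GSK2033 + 27HC, against 8.50, 7.97, 9.49, 10.3 and 8.89 CPM with ICI + 27HC. Without 27HC, Cx3cr1 was instead lower with GSK2033 than with ICI, at -0.21 ± 0.071 log2.

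**Figure D4:**
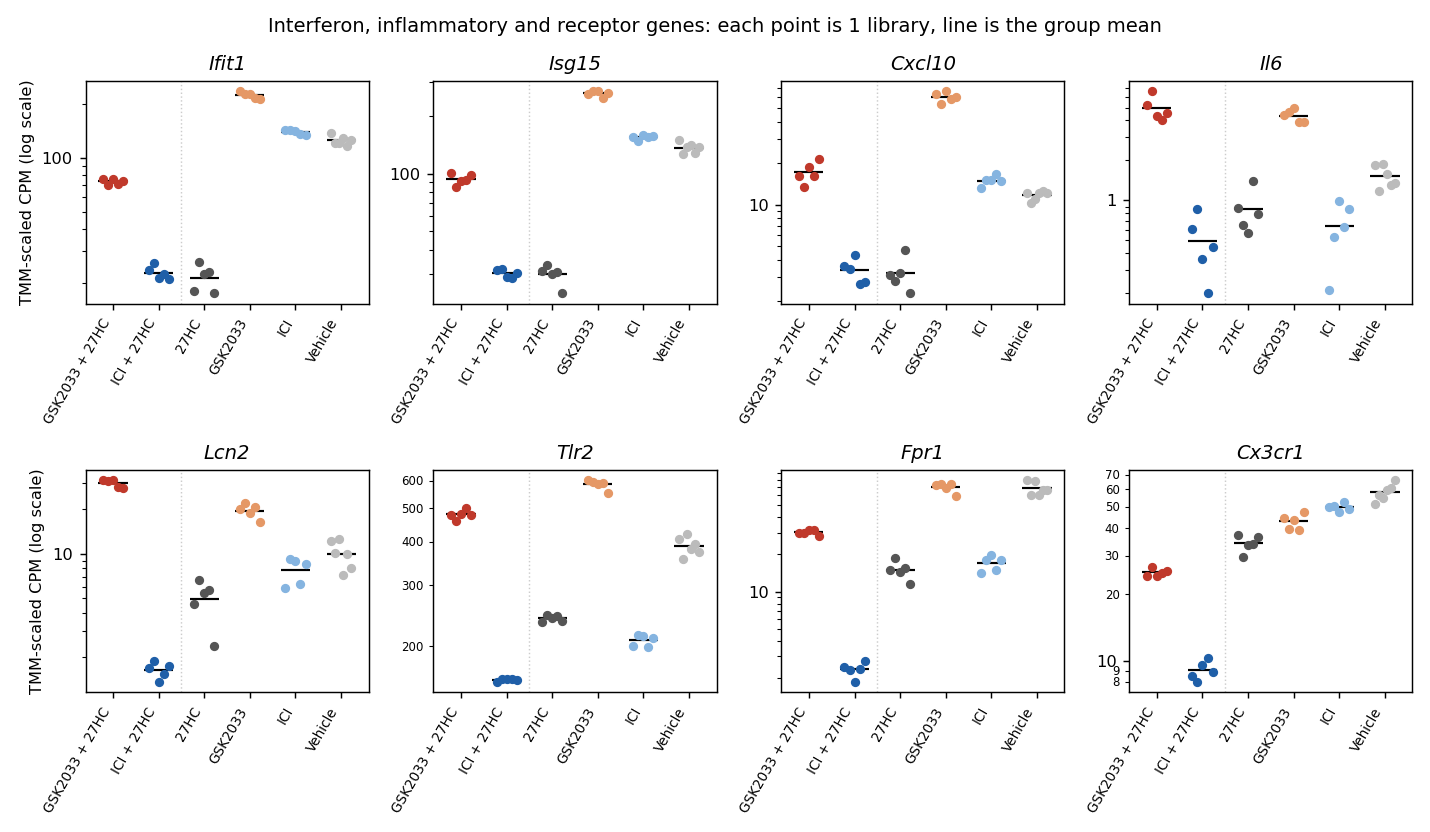
TMM-scaled CPM (log axis) of 8 interferon, inflammatory and receptor genes in each library of 6 groups, with a line at the group mean. GSK2033 + 27HC lies above ICI + 27HC for all 8; for Ifit1 and Isg15 ICI + 27HC sits at the level of 27HC, and for Fpr1 and Cx3cr1 well below it.

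The macrophage identity markers were split. Of 13 tested, 8 were higher and 5 lower with GSK2033 + 27HC. Adgre1, the F4/80 antigen, had 2192, 2101, 2159.6, 2329 and 2341 CPM with GSK2033 + 27HC, against 1279, 1303, 1282, 1300.4 and 1326 CPM with ICI + 27HC, higher by 0.78 ± 0.031 log2. Itgam, the integrin CD11b, was higher by 0.61 ± 0.037. Of 22 lipid-associated and efferocytosis genes, 2 were higher and 12 lower (median -0.21). Mertk, a receptor for dying cells, was lower, at -1.03 ± 0.048 log2, Trem2, a lipid sensor, at -0.88 ± 0.042, Lgals3, galectin 3, at -0.73 ± 0.034 and Ctsb, a lysosomal protease, at -0.35 ± 0.018. Without 27HC, 15 of the 22 were lower and 0 higher with GSK2033 (1 higher without GSK2033 replicate 1 or ICI replicate 5), with a median of -0.21.

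Genes of alternative activation had no common direction, with 4 of 13 tested higher and 4 lower. The sign of the list's median of 0.12 depended on single libraries, since it was -0.022 without GSK2033 + 27HC replicate 2 and -0.10 without ICI + 27HC replicate 4. Mrc1, the mannose receptor, was higher by 0.51 ± 0.033 log2 and Tgm2, a transglutaminase, lower, at -0.36 ± 0.030. F13a1, the coagulation factor XIII A chain, had 10.1, 13.1, 10.5, 9.57 and 11.8 CPM with GSK2033 + 27HC, against 2.93, 3.25, 2.91, 2.64 and 2.82 CPM with ICI + 27HC. It was 3.78-fold higher with GSK2033 + 27HC, but without 27HC lower with GSK2033 than with ICI, at -0.25 ± 0.089 log2, one of the highest interactions at 2.17 ± 0.13 log2. Of 26 lysosome genes, 2 were higher and 15 lower, by small amounts (median -0.10), among them Atp6v0d2, a proton pump subunit, at -0.57 ± 0.041 and Tfeb, a regulator of lysosome genes, at -0.57 ± 0.043 log2. The 8 osteoclast markers, of which Atp6v0d2 is one, summed to between 147 and 152 CPM with GSK2033 + 27HC and between 174 and 182 CPM with ICI + 27HC, with Calcr at 0, and their part was not tested.

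Genes of serine, one-carbon and amino acid metabolism leaned one way with the oxysterol and the other way without it. The integrated stress response raises the translation of ATF4, which switches on genes of amino acid synthesis and transport. Of 25 serine, one-carbon and amino acid genes, 5 were higher and 11 lower with GSK2033 + 27HC (median -0.089), while without 27HC 10 were higher and 0 lower with GSK2033 (median 0.13; 1 lower without ICI replicate 3). The interaction was called downwards for 14 and upwards for 1. Adding 27HC raised 21 of the 25 under GSK2033 and 20 under ICI, by a median of 0.37 and 0.57 log2, and lowered 0 and 0. Of all genes, 17.1% and 19.7% rose. Against the shared 27HC libraries, 21 were higher with GSK2033 + 27HC and 23 with ICI + 27HC, where 21.1% and 16.8% of all genes were higher.

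Stretches before the start of 3 genes on the stress lists hold the letters TGATGNAA or their reverse complement, the core of the element that ATF4 binds, shown in capitals (RefSeq, GRCm38.p6). They are shown because the 3 genes went different ways.
Asns, chr6:7693210-7693289, - strand: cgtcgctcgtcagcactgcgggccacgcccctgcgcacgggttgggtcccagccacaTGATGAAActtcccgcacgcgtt
Atf3, chr1:191183400-191183479, - strand: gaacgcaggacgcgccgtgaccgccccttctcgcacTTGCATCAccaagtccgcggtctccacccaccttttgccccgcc
Slc7a11, chr3:50443627-50443706, - strand: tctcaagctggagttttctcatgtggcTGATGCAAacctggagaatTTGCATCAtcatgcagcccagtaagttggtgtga
The letters occurred in the window of 300 bases for 6 of the 20 genes listed for the unfolded protein and integrated stress response, for 5 of 18 serine, one-carbon and amino acid genes with a window, and for 1219 of 27025 genes in all (4.51%). Asns, asparagine synthetase, had 130.3, 127, 133, 135 and 129.9 CPM with GSK2033 + 27HC, against 188, 175, 179.5, 173 and 169 CPM with ICI + 27HC. It was lower, at -0.43 ± 0.050 log2 with 27HC and higher by 0.14 ± 0.052 without it. Atf3, a stress-induced repressor, was lower in both settings, at -1.59 ± 0.053 log2 with 27HC and -0.98 ± 0.053 without it. Slc7a11, the cystine importer, had 259.99, 282, 287, 284 and 295 CPM with GSK2033 + 27HC, against 109, 112, 106, 114 and 118 CPM with ICI + 27HC, and was higher in both settings, by 1.33 ± 0.076 log2 with 27HC and 1.86 ± 0.082 without it.

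Atf4 itself, singled out after its values were seen, had 308, 315, 325, 304 and 309 CPM with GSK2033 + 27HC, against 402, 407, 418, 406 and 404 CPM with ICI + 27HC. It was lower, at -0.38 ± 0.027 log2 with GSK2033 + 27HC and, without the oxysterol, higher by 0.25 ± 0.028 with GSK2033, an interaction of -0.64 ± 0.039 (adjusted p = 4.18e-17). Mthfd2, a mitochondrial one-carbon enzyme, was lower, at -0.61 ± 0.033 and Slc38a2, a neutral amino acid transporter, at -0.33 ± 0.030 log2, but Aldh1l2, another mitochondrial one-carbon enzyme, was 2.73-fold higher. Of the 20 genes of the unfolded protein and integrated stress response list, 12 were higher and 3 lower. The chaperones of the endoplasmic reticulum were among the higher ones, with Hspa5 (BiP) at 0.59 ± 0.023, Dnajb9 at 0.44 ± 0.031 and Pdia4 at 0.34 ± 0.020 log2. Of 19 NRF2 targets, which protect against oxidants, 7 were higher and 10 lower. Prdx1, a peroxidase, and Fth1, ferritin heavy chain, were higher by 0.40 ± 0.034 and 0.43 ± 0.040 log2, and Txnrd1, thioredoxin reductase, and Osgin1 lower, at -0.37 ± 0.026 and -0.75 ± 0.054.

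**Figure D5:**
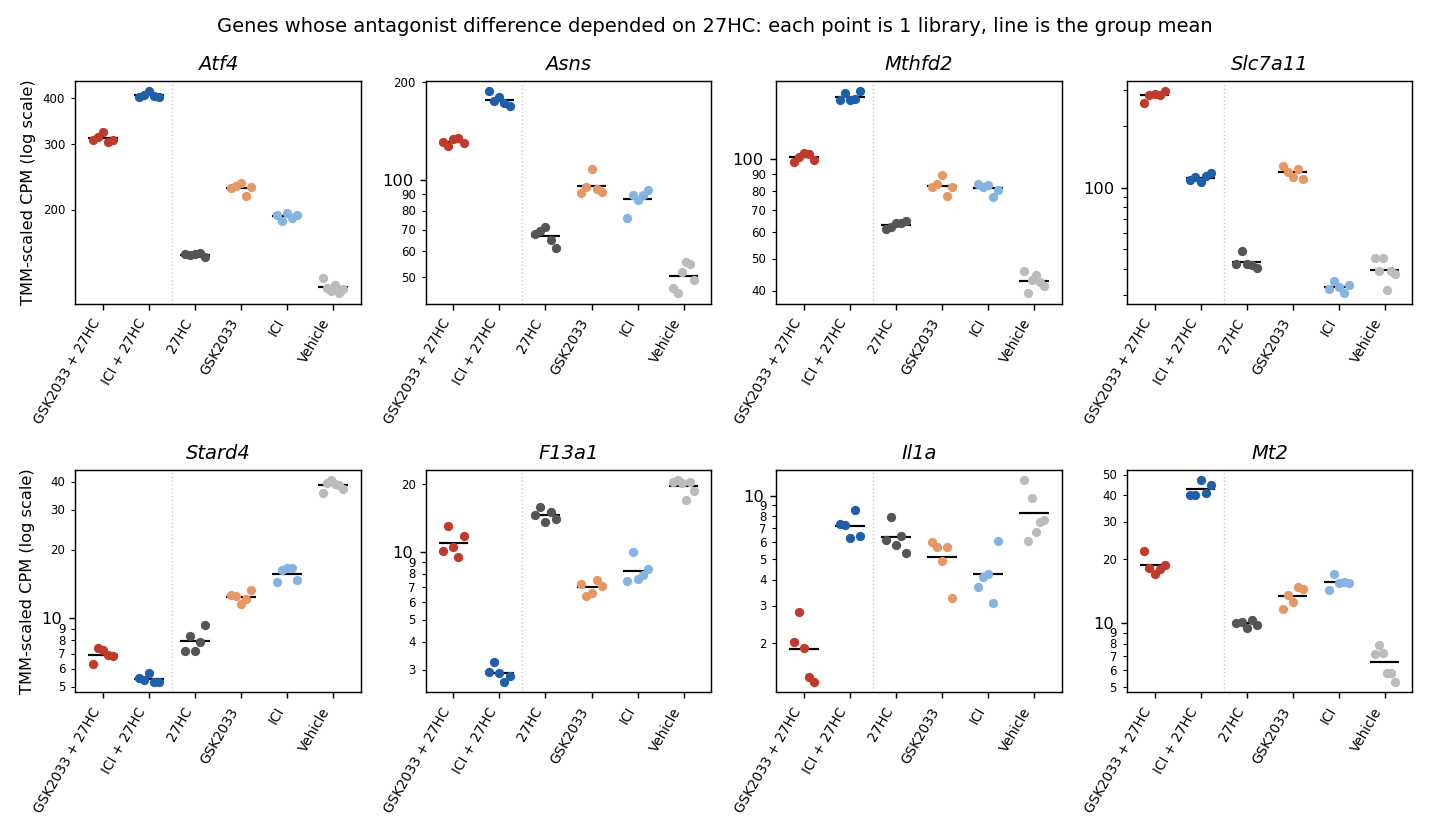
TMM-scaled CPM (log axis) of 8 genes with a called interaction, in each library of 6 groups, with a line at the group mean. Atf4, Asns, Stard4 and F13a1 lie on opposite sides in GSK2033 + 27HC against ICI + 27HC and in GSK2033 against ICI.

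Immediate early genes, the first to respond to growth and stress signals, were mostly lower with GSK2033 + 27HC. Of 22, 3 were higher and 12 lower (median -0.18), whereas without 27HC 10 were higher and 6 lower with GSK2033. Dusp1, a MAP kinase phosphatase, had 122, 130.1, 128, 133 and 128 CPM with GSK2033 + 27HC, against 214, 201, 211, 213 and 208 CPM with ICI + 27HC, lower, at -0.71 ± 0.031 log2, and higher by 0.098 ± 0.031 without 27HC. Dusp4, another such phosphatase, and Zfp36, which destabilises cytokine mRNA, were lower, at -0.88 ± 0.057 and -0.63 ± 0.037, and Ier3 was higher by 1.02 ± 0.061. Mt1 and Mt2, metallothioneins that bind zinc, were lower, at -0.96 ± 0.046 and -1.18 ± 0.071 log2, as was the zinc exporter Slc30a1, at -0.57 ± 0.038. Of the 7 tested genes of that list, 2 were higher, or 1 without GSK2033 + 27HC replicate 5 or ICI + 27HC replicate 1, and 3 lower. Mt2 averaged 18.8 CPM with GSK2033 + 27HC and 42.7 CPM with ICI + 27HC, beside 9.99 CPM with 27HC, 13.4 with GSK2033, 15.6 with ICI and 6.56 with Vehicle.

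Most glycolysis and hypoxia genes were higher with GSK2033 + 27HC. Of 24 tested, 18 were higher and 2 lower, Pfkp and Vegfa, of which 1 remained called without GSK2033 + 27HC replicate 3 or without ICI + 27HC replicate 2 (median 0.37), and without 27HC 17 were higher and 0 lower (median 0.30). Slc16a3, the lactate exporter, had 224, 220.3, 214, 235 and 236 CPM with GSK2033 + 27HC, against 102, 102, 120.2, 112 and 112 CPM with ICI + 27HC. Slc16a3 was 2.06-fold higher with GSK2033 + 27HC, and the enzymes Pfkl, Tpi1 and Pgam1 were higher by 0.65 ± 0.036, 0.50 ± 0.029 and 0.36 ± 0.022 log2, with P4ha1, a collagen hydroxylase that hypoxia induces, at 0.46 ± 0.024. Mitochondrially encoded transcripts went the other way, with 11 of 13 lower and 0 higher (median -0.30). With 27HC, the count of 11 lower fell to 7 without GSK2033 + 27HC replicate 1, without ICI + 27HC replicate 5, or with no low-count filter. Without 27HC, 11 were also lower and 0 higher with GSK2033, by more (median -0.59). The interaction was called upwards for 3 transcripts and downwards for 0. The upward count was 7 under a replicate block and 6 without GSK2033 + 27HC replicate 1. Their share of the counts was 1.34% ± 0.113 with GSK2033 + 27HC and 1.66% ± 0.118 with ICI + 27HC (SD, n = 5 each), a difference of -0.317 percentage points (two-sided exact permutation p = 0.0159, the smallest possible being 0.00794). The shares overlapped, from 1.211% to 1.51% with GSK2033 + 27HC and from 1.491% to 1.823% with ICI + 27HC. Of the transcripts, mt-Cytb was lower, at -0.42 ± 0.067, mt-Nd6 at -0.44 ± 0.057 and mt-Co1 at -0.37 ± 0.072 log2, all 3 subunits of the respiratory chain.

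Secreted proteases and matrix genes were evenly split, with 8 of 21 higher and 8 lower. Mmp12, macrophage elastase, had 487, 495, 469, 469.6 and 486 CPM with GSK2033 + 27HC, against 1222, 1204, 1252, 1206 and 1227 CPM with ICI + 27HC, and was 2.54-fold lower with GSK2033 + 27HC. Plau, urokinase, was lower, at -1.69 ± 0.046 log2, whereas the proteases Mmp9 and Mmp14 were higher by 0.84 ± 0.085 and 0.78 ± 0.049, and the inhibitor Timp3 by 0.94 ± 0.052. The stromal marker sum given above was also higher with GSK2033 + 27HC, and its part in the matrix genes was not tested. Cell cycle genes stayed near the background, with 6 of 27 higher and 3 lower. The lower ones were Pcna, the replication clamp, at -1.05 ± 0.040, Cdt1, a licensing factor, at -0.64 ± 0.050 and Mcm6, a helicase subunit, at -0.46 ± 0.039 log2, and Cdk1, the mitotic kinase, was higher by 0.31 ± 0.079.

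Other genes were among the 10 lowest and 10 highest. The lower ones included Abi3, an actin regulator, Gngt2, a G protein subunit, Cd38, an NAD-consuming enzyme, and Abcb4, a phospholipid transporter, at -2.96 ± 0.074, -2.67 ± 0.072, -2.52 ± 0.14 and -2.26 ± 0.078 log2. Cd38 had 4.12, 5.17, 4.62, 5.11 and 5.17 CPM with GSK2033 + 27HC, against 27.3, 28.7, 26.02, 29.5 and 27.7 CPM with ICI + 27HC. The higher ones included Mcemp1 at 3.85 ± 0.37, Hcar2, a receptor for the ketone body beta-hydroxybutyrate and niacin, at 3.34 ± 0.15, Vnn3, a pantetheinase family member, at 3.05 ± 0.29 and Adgre4, an adhesion G protein-coupled receptor, at 2.97 ± 0.22 log2. Hcar2 had 7.99, 7.73, 7.60, 8.54 and 8.997 CPM with GSK2033 + 27HC, against 0.894, 0.780, 0.727, 0.798 and 0.816 CPM with ICI + 27HC. For all 8 genes named here the groups did not overlap, which was a condition for naming them and not a result.

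Several of the largest fitted interactions fell outside the lists as well. Ly6i, of the Ly6 family with close copies, was higher by 2.24 ± 0.12 log2 with 27HC and 0.45 ± 0.084 without it, and Ms4a4a by 2.35 ± 0.12 and 0.60 ± 0.084. Nnt, the mitochondrial transhydrogenase, had 4.12, 8.63, 5.29, 1.79 and 5.49 CPM with GSK2033 + 27HC, against 0.406, 4.24, 1.27, 0 and 2.98 CPM with ICI + 27HC. Its groups overlapped and its libraries varied widely. The call with 27HC (log2 fold change 1.48 ± 0.48, adjusted p = 0.0141) was lost without GSK2033 + 27HC replicate 2 (adjusted p = 0.0648), without ICI + 27HC replicate 1 (adjusted p = 0.0541) and with only the groups compared (adjusted p = 0.151). Its interaction of 2.05 ± 0.65 log2 (adjusted p = 0.0292) was lost with no low-count filter (adjusted p = 0.0604), with only the groups compared (adjusted p = 0.118), and, at adjusted p from 0.0506 to 0.0786, without GSK2033 + 27HC replicate 2, without ICI + 27HC replicate 1, 3 or 4, without GSK2033 replicate 2 or 5, or without ICI replicate 1 or 3. Rgs1, a brake on G protein signalling, and Spsb4, a ubiquitin ligase subunit, were lower, at -1.40 ± 0.076 and -1.75 ± 0.22 log2 with 27HC and not called without it, with interactions of -1.30 ± 0.11 and -1.40 ± 0.32. Aqp9, a glycerol and water channel, and Pim2, a kinase, were higher with GSK2033 than with ICI by 1.44 ± 0.22 and 1.28 ± 0.11 log2, whereas with 27HC their groups overlapped and the log2 fold changes were 0.053 ± 0.19 and -0.016 ± 0.13. Aqp9 averaged 3.11 CPM with GSK2033 + 27HC, 2.996 with ICI + 27HC, 0.734 with 27HC, 1.71 with GSK2033, 0.629 with ICI and 0.322 with Vehicle.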

How the data were processed

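Polyadenylated RNA of mouse bone marrow-derived macrophages was sequenced in 46 libraries, as 100-nt single reads from stranded libraries per the labels' protocols. The authors deposited estimated counts per gene, which need not be whole numbers, made with kallisto 0.44.0 on the GRCm38 build per the submitters' processing notes; how transcripts were summed to genes is not given in the sources used here. Close gene copies may share such counts. The counts were rounded, which changed a library total by at most 133. Gene names come from GENCODE M21 and cover 24279 of the 24671 genes; the 392 without a name held 0.455% of all counts.

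edgeR 4.0.16 (R 4.3.3) was used with its expression filter, TMM scaling and 1 mean per group over all 46 libraries, leaving 37 residual degrees of freedom and 13838 genes. All p-values for genes are from edgeR's quasi-likelihood test, two-sided, with Benjamini-Hochberg adjustment over those genes. The interaction is the antagonist difference with 27HC minus that without it. Totals ran from 19354093 to 30921038 estimated counts per library, and the common biological coefficient of variation was 7.55%. On simulated counts for GSK2033 + 27HC against ICI + 27HC, 13540 genes were tested and 3 unchanged genes were called. Of 50 genes changed at each size, 66% were called at 1.25-fold, 98% at 1.5-fold and 100% at 2-fold and 4-fold. The changed genes all had a mean of at least 50 counts, and every gene was given the same spread. Recovery of genes with fewer counts or a wider spread was not tested.

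The comparison, the gene lists and the genes named were chosen with earlier results of these data known. Named genes are the receptors and main targets, and up to 5 genes per list with the smallest p among those called. Added to these were the 10 highest and 10 lowest changes among called genes with non-overlapping groups and a mean of at least 1 CPM. The 8 highest and 8 lowest called interactions at that level were also taken, without the overlap condition. Cell type markers came from lists of their own. Atf4, Gbp2, Mx2, Tnfaip3, H2-DMb2, Pfkp, Vegfa, Acly, Fads1, Acss2 and Me1 were named after their values were seen. A few genes that the rule covers are not reported here. Alternatives were DESeq2 1.42.0 and its size factors, no low-count filter, a 1 CPM filter, a fit of only the groups compared, a replicate block and leaving out each replicate.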

Additional observations from a re-analysis of the deposited data

Results flagged for a closer look

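Some genes differed in opposite directions with and without 27HC, and the interaction tested that difference. Over all genes the interaction was called upwards for 862 and downwards for 836. Among the genes named here, Stard4, Cx3cr1, F13a1 and Itgam were higher with GSK2033 + 27HC than with ICI + 27HC but lower with GSK2033 than with ICI, with interactions of 0.69, 1.69, 2.17 and 0.80 log2. The opposite order was found for Slc38a2, Asns, Atf4 and Dusp1, at -0.56, -0.57, -0.64 and -0.80 log2.

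In 20 of 268 groups of 5 values, a single library stood apart from the other 4; chance gives about 1 in 20. Of the GSK2033 + 27HC libraries, replicate 5 was apart for Srebf1 (63.83 CPM), Fpr2 (41.65 CPM) and Mmp9 (87.45 CPM), replicate 2 for Ms4a4a (25.50 CPM) and replicate 4 for Ly6i (12.53 CPM). Of the ICI + 27HC libraries, replicate 3 was apart most often, for Nr1h2 (76.29 CPM), Abi3 (56.63 CPM), Ctsd (13110 CPM), Nlrp3 (45.68 CPM), Cd14 (616.1 CPM), Trem2 (325.3 CPM), Lgals3 (4816 CPM) and Mt1 (121.7 CPM). Replicate 1 of that group was apart for Tlr2 (157.8 CPM) and Atf3 (375.8 CPM), replicate 2 for Ifit3b (7.624 CPM) and Lgals9 (130.8 CPM), and replicate 5 for Msmo1 (50.10 CPM), Cd36 (2986 CPM) and Pdia4 (168.6 CPM).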

How the results depend on the processing

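All 278 alternative values of the gene counts and of the mitochondrial share kept their direction and lay within 1.5 times or 1 SD of the value reported. With 27HC, the counts of genes higher and lower were 2275 and 2196 with DESeq2, 2117 and 1898 with no low-count filter, 2255 and 2159 with a 1 CPM filter, and 2150 and 2164 with only the groups compared. Leaving out 1 library at a time gave 2027 to 2291 higher and 1948 to 2170 lower with 27HC, 1667 to 1864 and 1691 to 1872 without it, and 717 to 881 and 686 to 918 for the interaction. The mitochondrial difference then ran from -0.359 to -0.276 percentage points. With the replicate numbers as a block, 2325 genes were higher and 2403 lower with 27HC, and the interaction was called upwards for 978 and downwards for 944. Deviations from the group mean correlated at 0.0221 to 0.101 between same-numbered libraries of the 2 groups. Between differently numbered ones they correlated at -0.108 to 0.0909. Same-numbered libraries of GSK2033 and ICI correlated at 0.00396 to 0.14. The fit reported has no block, and whether equal numbers mark matched cultures was not tested. Under the block, 1 serine, one-carbon or amino acid gene was lower with GSK2033 than with ICI, where the fit without it called 0. The alternative activation median ran from -0.10 to 0.26 log2 when 1 library was left out, and was -0.022 without GSK2033 + 27HC replicate 2 and -0.10 without ICI + 27HC replicate 4. For the named genes with 27HC, 3 of the alternatives ended a call, that of Nnt in each case, as given above. For their interactions, 66 alternatives ended a call (Mmp14, Cd14, Cdk1, Nnt, Fasn, Irak3, S100a8, Lipa, Pparg, Ctsb and Fth1), 31 made one (Myc, Cd38, Ptges, Mcemp1, Rara, Acaca, mt-Cytb, Tlr1, mt-Co1 and Nr1h3) and 3387 changed none. Isoforms were not resolved, and smaller differences at low counts may lie below what these libraries can call.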
